A study of Bos taurus with 30 samples.

Results

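The genes described here are 5 genes of the extracellular matrix, measured by RNA-seq in visceral adipose tissue of 30 heifer calves. They are the fibrillar collagen chains COL1A1 (ENSBTAG00000013103), COL1A2 (ENSBTAG00000013472) and COL3A1 (ENSBTAG00000021466), and the collagen-binding proteins SPARC (ENSBTAG00000014835) and DCN (ENSBTAG00000003505). They were chosen by name and identifier and not by their values, but with earlier results of these data known. A gene was used only if its mean over the 30 libraries was above 10. All 5 of the 5 genes met this, with means from 489 to 5254 TMM-normalized CPM (reads relative to library size, rescaled by the trimmed mean of M-values), and they are 5 of the 24596 genes listed. The table lists identifiers only, so the names are those under which the genes were chosen, and genes outside these 5 have no name here.

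The calves were crosses of Holstein-Friesian and Angus. The 15 HI calves were given the High diet, with 10 litres (1.5 kg) of milk replacer daily and concentrates ad libitum, for an intended gain of 1.2 kg per day. The 15 MOD calves were given the Moderate diet, with 4 litres (0.5 kg) of milk replacer and a restricted allowance of concentrates, for an intended gain of 0.5 kg per day. The calf phase lasted 8 weeks and the post-weaning phase 11 weeks, and omental fat was taken from both groups at 21 weeks of age, with 1 library per calf. The groups thus differ in the whole feeding regimen, from milk to concentrates, and its components cannot be told apart. Reads counted on genes ranged from 11847883 to 19383275 per library, and the 5 genes had between 3427 and 128731 reads in any library, so counting error is small for these genes beside the differences between calves.

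Fibrillar collagens form the load-bearing fibres of connective tissue. Type I collagen is a triple helix of α1 chains, from COL1A1, and an α2 chain, from COL1A2, while type III collagen is built from the COL3A1 chain alone and is typical of pliable, distensible tissues. SPARC (osteonectin) is a matricellular glycoprotein that binds collagen and cells, and in fat it is known as a product of adipocytes and stromal cells that limits adipogenesis. Decorin, from DCN, is a small leucine-rich proteoglycan that coats collagen fibrils and regulates their thickness. In fat, collagens and decorin come mainly from fibroblasts and progenitor cells, and the matrix is remodelled as adipocytes enlarge.

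A limited number of libraries stood apart from the rest over the 12738 genes tested. On the first principal component, which held 36.7% of the variance, HI calf 2120 had a score of 167, MOD calf 975 of 88.8 and MOD calf 911 of 49.5, whereas the next calf scored 9.55. The diet differences, ratios and correlations were also computed without these 3 calves. Markers of adipocytes, fibroblasts or other cells could not be examined for want of names. In bulk tissue, moreover, more cells of a type and more RNA per cell cannot be told apart.

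All 3 collagen chains and SPARC were up-regulated in HI calves, by 1.60-fold to 1.79-fold, whereas DCN, at 1.23-fold, did not pass the test. A gene was called where the Benjamini-Hochberg adjusted p from limma was below 0.05 and the change exceeded 1.5-fold. By this rule 4.36% of the genes tested were higher in HI calves and 2.36% lower (6.72% in all), against 4 of these 5 higher and none lower. These shares are over genes of all levels, whereas the mean value of each of the 5 exceeded that of at least 97.7% of genes tested. Several of the 5 were also correlated across calves, so their calls are not independent. The same 4 genes were past both thresholds by the exact test on recovered reads, which called 4.85% of genes higher. The median log2 fold change was 0.68 over the 5 genes and -0.02 over all genes tested.

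COL1A1 ranged from 974 through a median of 1655 to 2881 CPM in HI calves. In MOD calves it ranged from 591 through a median of 962 to 2393 CPM. The ranges overlapped, but each of the 15 HI calves exceeded the MOD median and 9 MOD calves were below the lowest HI calf. At least 14 of the 15 HI calves exceeded the MOD median in 9.5% of the genes tested, and in 4 of the 5 genes here. The mean was 1771 ± 497 in HI and 1159 ± 523 in MOD calves (SD, n = 15 each). On the log2 scale the diets differed by 0.68 (adjusted p = 0.0128 by limma, 95% interval 0.31 to 1.06).

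COL1A2, the partner chain of type I collagen, had the largest fold change of the 5 genes with limma on the deposited scale. Its values ran from 927 through 1414 to 2522 CPM in HI calves, and from 456 through 784 to 1781 CPM in MOD calves. As for COL1A1, no HI calf was as low as the MOD median and 9 MOD calves were below the lowest HI calf. The HI median was exceeded by 2 MOD calves for COL1A2 and by 4 for COL1A1. The mean was 1501 ± 411 in HI and 891 ± 417 in MOD calves (SD, n = 15 each), which is 0.84 higher on the log2 scale (adjusted p = 0.00288 by limma, 95% interval 0.46 to 1.22). In the newer RefSeq assembly a non-coding RNA gene, LOC132345065, overlaps COL1A2, and none overlaps the other 4 genes. The strand setting of the counts is not named, so a share of its reads in the COL1A2 value cannot be told apart.

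COL3A1 ran from 2603 through 5622 to 7515 CPM in HI calves. In MOD calves it ran from 1871 through 3290.2 to 5246 CPM. No MOD calf reached the HI median, and 9 HI calves were above the highest MOD calf. The lowest HI value belonged to calf 2120, and the other 14 HI calves were above the MOD median. The MOD values were split by a gap, with 8 calves up to 3290.2 and 7 calves from 4312 upwards. The mean was 5502 ± 1145 in HI and 3585 ± 1321 in MOD calves (SD, n = 15 each), which is 0.68 higher on the log2 scale (adjusted p = 0.00912 by limma, 95% interval 0.32 to 1.04).

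SPARC separated the diets most clearly of the 5 genes. It ran from 4921 through 6444 to 9662 CPM in HI calves, and from 2499 through 4236 to 5605 CPM in MOD calves. The overlap was narrow, with 11 HI calves above the highest MOD calf and 11 MOD calves below the lowest HI calf. The mean was 6557 ± 1341 in HI and 3951 ± 1031 in MOD calves (SD, n = 15 each), which is 0.75 higher on the log2 scale (adjusted p = 0.00038 by limma, 95% interval 0.48 to 1.03). Diet accounted for 56.8% of the variance of SPARC between calves on the log2 scale, for 32.0% to 40.8% in the collagen chains and for 13.9% in DCN. SPARC ranked 148 among the 12738 genes by p-value.

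DCN differed least between the diets. It ran from 358 through 519 to 784 CPM in HI calves, and from 235 through 418 to 641 CPM in MOD calves. The ranges overlapped over most of their length, although 13 HI calves were above the MOD median, and 6 MOD calves were above the HI median. The mean was 534 ± 116 in HI and 444 ± 134 in MOD calves (SD, n = 15 each). The log2 fold change was 0.30 (95% interval 0.01 to 0.59, adjusted p = 0.156, limma), so the interval includes a change just above 1.5-fold as well as one close to none. The plot of values by calf shows these overlaps.

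**Figure D1:**
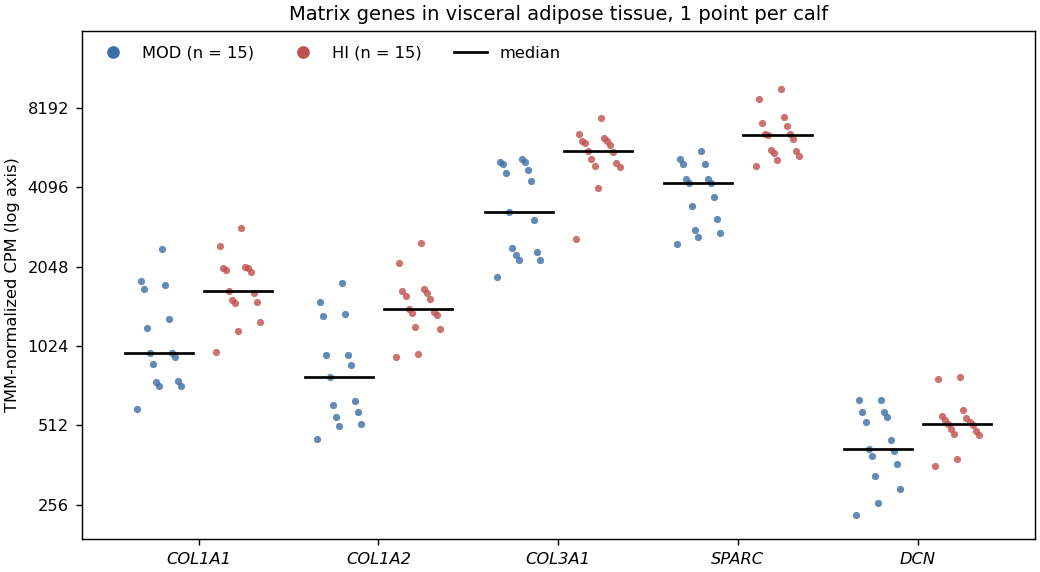
TMM-normalized CPM (log axis) of the 5 genes in each of 15 MOD (blue) and 15 HI (red) calves, with lines at the medians. The HI medians are higher for each of the 5 genes, the SPARC groups overlap least (11 HI calves above the highest MOD calf) and the DCN groups overlap most.

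The size of these differences depends on the scaling between libraries. The TMM factors implied by the deposited values averaged 0.94 ± 0.10 in HI and 1.07 ± 0.10 in MOD calves (SD, n = 15 each). With libraries scaled by their size alone, the median gene moved by -0.18 on the log2 scale, and the calls split into 351 genes higher and 779 lower in HI calves in place of 556 and 300. On that scale the log2 fold changes were 0.49 for COL1A1 (adjusted p = 0.0591, limma), 0.65 for COL1A2 (0.0134), 0.49 for COL3A1 (0.0454), 0.56 for SPARC (0.00132) and 0.11 for DCN (0.621). Only COL1A2 of the 5 genes then stayed past both thresholds, with 2.76% of genes called higher. Relative to the median gene the same values were 0.69, 0.84, 0.68, 0.76 and 0.31, close to those on the TMM scale. That closeness is built into the comparison, because the median gene is already near 0 on the TMM scale (-0.02). Each of the 5 genes was higher in HI calves with either scaling.

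**Figure D2:**
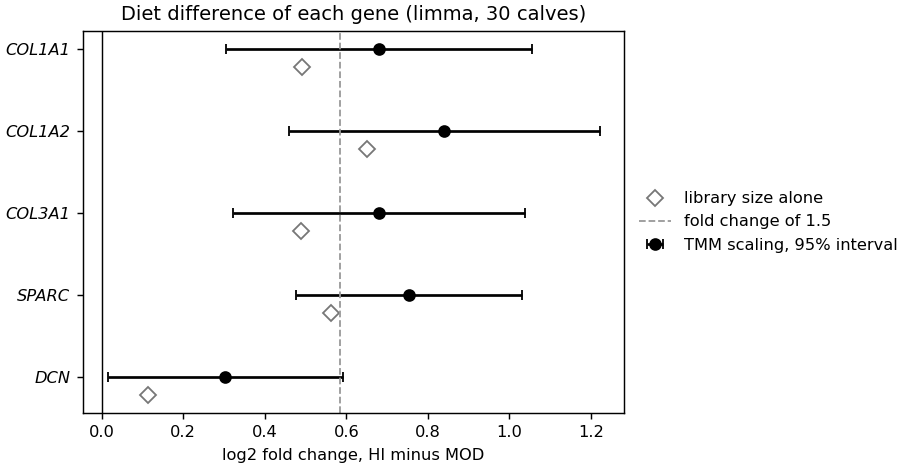
Log2 fold change of HI minus MOD for each gene, with 95% intervals on the TMM scale (black) and with library size alone (open diamonds). The dashed line marks a fold change of 1.5, which 4 genes pass on the TMM scale and COL1A2 alone passes with library size alone.

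Without HI calf 2120 and MOD calves 975 and 911, the log2 fold changes were 0.74 for COL1A1, 0.91 for COL1A2, 0.71 for COL3A1, 0.78 for SPARC and 0.37 for DCN. The same 4 genes were past both thresholds, with adjusted p-values of 0.0072, 0.0020, 0.0042 and 0.00039 (limma), while DCN had 0.0755. In that fit 590 of the 12738 genes tested were called higher in HI calves and 294 lower. As a share of all counted reads, the 5 genes together took 1.50% ± 0.30 in HI and 1.06% ± 0.27 in MOD calves (SD, n = 15 each). The lowest HI share, 0.706%, was that of calf 2120.

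The mean of the 5 log2 values was 11.06 ± 0.27 in HI and 10.41 ± 0.44 in MOD calves (SD, n = 15 each), and it was above the MOD median in all 15 HI calves. In 12 HI calves each of the 5 genes was above its MOD median. At the other end, 8 MOD calves had at least 4 of the 5 genes below the lowest HI value of the gene, and MOD calf 3622 had all 5 there. Several of the 5 genes were correlated across calves, so these counts do not stand for 5 separate genes. The same counts for other sets of genes were not computed. Calves on the Moderate diet also varied more among themselves. The SD of log2 values was 0.60 in MOD against 0.41 in HI calves for COL1A1, 0.64 against 0.38 for COL1A2, 0.56 against 0.36 for COL3A1, 0.39 against 0.28 for SPARC and 0.46 against 0.30 for DCN. Over all genes tested, 40.3% had the larger SD in MOD calves, and 79.9% when HI calf 2120 was left out, so this direction was common among genes once that calf was set aside.

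A ratio between genes of the same library does not depend on the scaling between libraries, and 4 ratios to COL1A1 were compared between the diets. COL1A2 rose more than COL1A1. The geometric mean of the ratio of COL1A2 to COL1A1 was 0.851 in HI calves, with a range from 0.752 to 0.983. In MOD calves it was 0.762, with a range from 0.659 to 0.931. The ratio was above the MOD median in 14 of the 15 HI calves, and the difference was 0.16 on the log2 scale (standard error 0.04, two-sided permutation test, p = 0.00073, adjusted p = 0.00292 over the 4 ratios). It was 0.17 without calves 2120, 975 and 911 (permutation test, adjusted p = 0.00036). These ratios are of reads and not of molecules, since reads were not divided by transcript length.

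DCN was lower relative to COL1A1 in HI calves, although DCN itself was not lower (log2 fold change 0.30). The log2 fold change of COL1A1 exceeded that of 95.6% of the genes tested. A lower ratio to COL1A1 in HI calves would therefore be found for most genes and is not particular to DCN. The ratio of DCN to COL1A1 had a geometric mean of 0.307 in HI and 0.399 in MOD calves, and was below the MOD median in 13 of the 15 HI calves. The difference was -0.38 on the log2 scale (standard error 0.15, two-sided permutation test, p = 0.0155, adjusted p = 0.0310 over the 4 ratios). The 5 highest ratios, from 0.545 to 0.691, were those of MOD calves 975, 1392, 1689, 1690 and 2532. This call was lost when HI calf 1089 was left out (-0.33, adjusted p = 0.0583, permutation test), and likewise without MOD calf 975 (-0.34, 0.0576), 1392 (-0.32, 0.0588), 1689 (-0.34, 0.0549), 1690 (-0.34, 0.0566) or 2532 (-0.35, 0.0522). Without calves 2120, 975 and 911 together the difference was -0.37 (permutation test, adjusted p = 0.0375).

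The ratio of type III to type I chains, COL3A1 to COL1A1, had a geometric mean of 3.14 in both diets. The difference was -0.00052 on the log2 scale (standard error 0.16, two-sided permutation test, p = 0.997), which at this spread does not exclude changes of a size with the difference found for COL1A2. Single calves varied widely in this ratio, from 2.13 to 5.04 in HI and from 1.37 to 5.75 in MOD calves. The ratio of SPARC to COL1A1 had a geometric mean of 3.77 in HI and 3.59 in MOD calves, a difference of 0.07 on the log2 scale (standard error 0.16, two-sided permutation test, p = 0.661). Without the 3 calves that stood apart these differences were -0.032 for COL3A1 and 0.047 for SPARC.

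**Figure D3:**
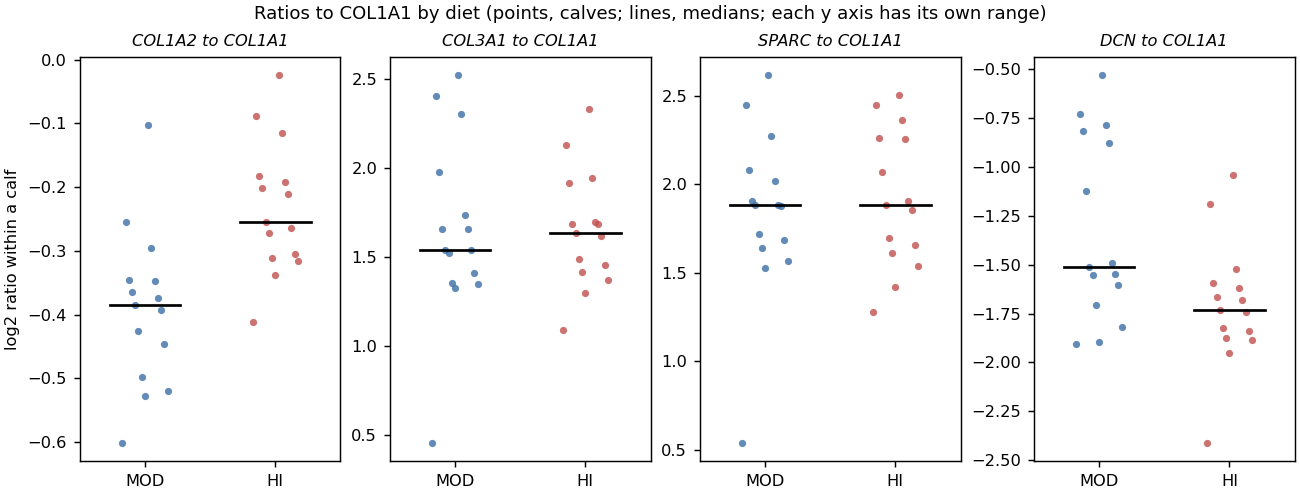
Log2 ratio of COL1A2, COL3A1, SPARC and DCN to COL1A1 within each calf, by diet, with lines at the medians and a separate y range in each panel. The COL1A2 ratio is higher in HI calves, the DCN ratio is lower, and the COL3A1 and SPARC ratios overlap throughout.

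Across calves the chains of type I collagen moved nearly as one. Over the 30 calves, log2 values of COL1A1 and COL1A2 had a Pearson's r of 0.98 and a Spearman's rho of 0.98 (two-sided permutation tests, p = 1e-05 each, the smallest that 100000 resamples can give, adjusted p = 1.67e-05 and 2.50e-05 over 10 pairs). Without the 2 calves farthest from the COL1A1 median r was 0.98, within HI calves it was 0.97 and within MOD calves it was 0.98. After each calf's values were taken as deviations from its diet mean, r was 0.98. On that measure COL1A2 was the gene most correlated with COL1A1 among the 12737 others, and COL1A1 the gene most correlated with COL1A2. The median r of COL1A1 with all other genes was 0.03.

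DCN followed type I collagen, despite its smaller difference between diets. Its r over 30 calves was 0.70 with COL1A1 (rho 0.73) and 0.74 with COL1A2 (rho 0.73). Each of the permutation tests gave an adjusted p of 3.33e-05 or less over 10 pairs, and r was 0.72 and 0.77 without the 2 calves farthest from the median of the collagen chain. Within diets r with COL1A2 was 0.65 in HI (permutation test, adjusted p = 0.0248) and 0.72 in MOD calves (adjusted p = 0.0111). By deviations from the diet means, COL1A2 ranked 11 and COL1A1 ranked 36 among the genes most correlated with DCN. COL3A1 ranked 4225 and SPARC 3134 in that order.

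COL3A1 and SPARC were also correlated with type I collagen. Over 30 calves r was 0.75 for COL1A1 with COL3A1 (rho 0.69), 0.73 for COL1A2 with COL3A1 (rho 0.73), 0.72 for COL1A1 with SPARC (rho 0.71) and 0.78 for COL1A2 with SPARC (rho 0.75). The adjusted p-values were at most 6.25e-05 (permutation tests, 10 pairs), and r was 0.67, 0.64, 0.64 and 0.71 without the 2 calves farthest from the median of the first gene. Since diet moves these genes together, r over all calves holds the diet difference too. As deviations from the diet means, the same pairs had r of 0.62, 0.56, 0.55 and 0.58 (permutation tests within diets, adjusted p from 0.00212 to 0.00552). By that measure COL3A1 ranked 36 and SPARC 70 among the genes most correlated with COL1A1. COL3A1 itself was correlated with many genes, and its 95th percentile of r over all other genes was 0.59. In its order COL1A1 ranked 405 and COL1A2 840, and in that of SPARC they ranked 279 and 161. Within MOD calves these pairs had adjusted p from 0.0221 to 0.0381 (permutation tests of r). Within HI calves COL1A2 with COL3A1 (adjusted p = 0.0781) and SPARC with either type I chain (0.155 each) did not pass the same test. In HI calves without calf 2120, the r of COL1A1 with COL3A1 was 0.41 (permutation test, adjusted p = 0.254, n = 14), against 0.65 with it, where rho was 0.43 (adjusted p = 0.136).

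COL3A1 and SPARC had an r of 0.74 over 30 calves (rho 0.72, permutation test, adjusted p = 1.67e-05) and of 0.65 without the 2 calves farthest from the COL3A1 median. As deviations from the diet means r was 0.55, below the 95th percentile of COL3A1 with all other genes (0.59). SPARC ranked 943 among the genes most correlated with COL3A1. Within diets r of the pair was 0.73 in MOD calves (adjusted p = 0.0111, permutation test) and 0.13 in HI calves (adjusted p = 0.645), a difference between diets that was not tested. The MOD calves were also split at the gap in COL3A1 values described above, which was chosen after seeing the data. Each side holds a narrower range of COL3A1, which can by itself lower r, so the split cannot show where the relation lay. On the lower side of the gap r was 0.67 (exact permutation test, unadjusted p = 0.0739, n = 8) and on its upper side 0.11 (exact permutation test, unadjusted p = 0.811, n = 7). For COL1A1 with COL3A1 the values on the lower and upper sides were 0.91 (exact permutation test, unadjusted p = 0.00124, n = 8) and -0.33 (exact permutation test, unadjusted p = 0.507, n = 7).

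The pairs of DCN with COL3A1 and with SPARC had the lowest r of the 10 pairs over the 30 calves. For COL3A1 with DCN, r over 30 calves was 0.31 (permutation test, adjusted p = 0.0969) and rho was 0.41 (adjusted p = 0.0277), and r was 0.11 by deviations from the diet means. In MOD calves r was -0.03, where calves 1057, 1395 and 2551 combined COL3A1 values of 4760 to 5107 CPM with DCN values of 235 to 328 CPM. In HI calves r was 0.46 (permutation test, adjusted p = 0.155) and rho 0.66 (adjusted p = 0.0262). SPARC with DCN had an r of 0.39 over 30 calves (permutation test, adjusted p = 0.0356) and a rho of 0.36 (adjusted p = 0.0528), and r was 0.18 by deviations from the diet means (adjusted p = 0.424). Without calves 2120, 975 and 911, r over the other 27 calves was 0.38 for COL3A1 with DCN, 0.42 for SPARC with DCN, 0.99 for COL1A1 with COL1A2 and between 0.73 and 0.78 for the other 7 pairs.

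**Figure D4:**
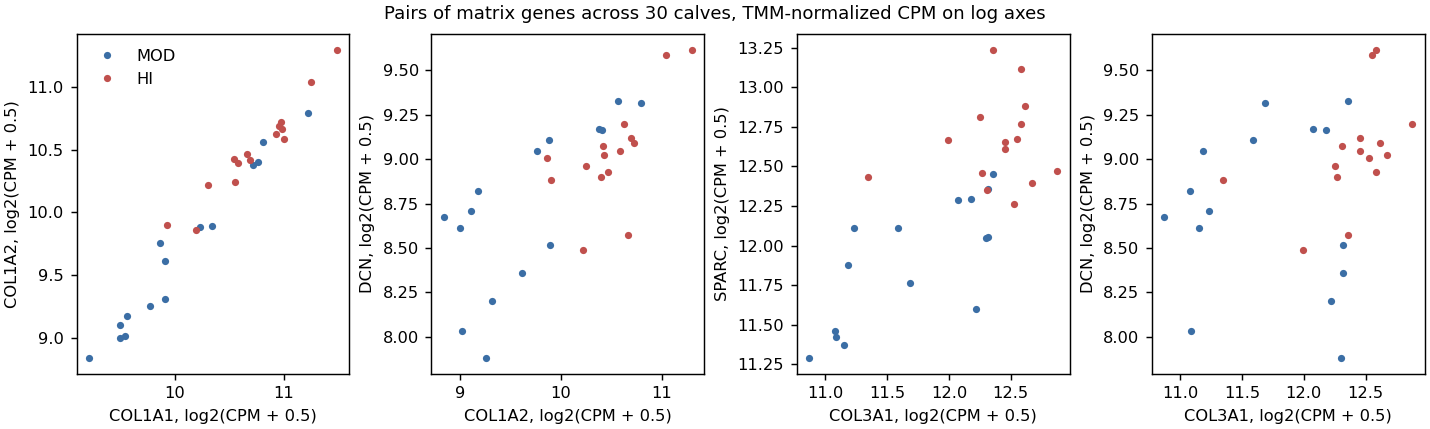
Log2(TMM-normalized CPM + 0.5) of 4 pairs of genes, 1 point per calf, MOD in blue and HI in red. COL1A1 and COL1A2 lie along a line in both diets, and DCN rises with COL1A2. COL3A1 and SPARC had an r of 0.73 in MOD and 0.13 in HI calves, a difference between diets that was not tested. COL3A1 with DCN is the most scattered of the 4 pairs over all calves.

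**Figure D5:**
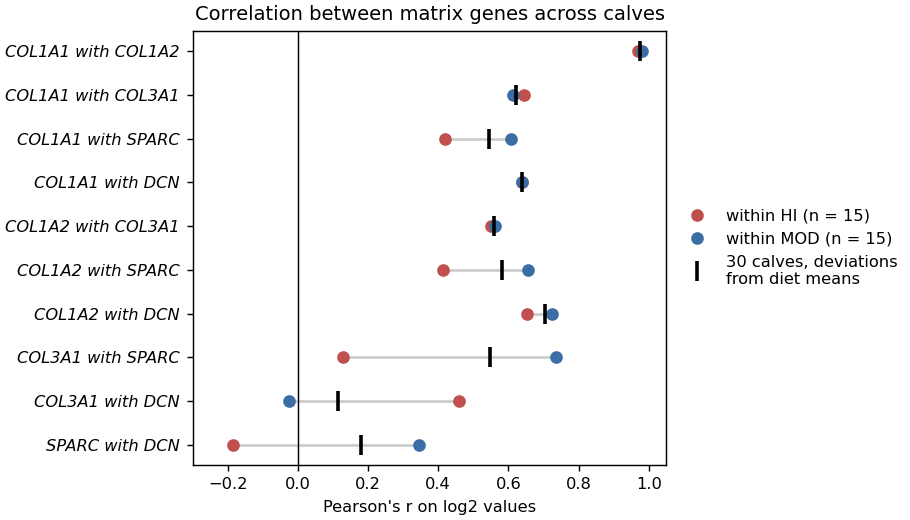
Pearson's r of the 10 pairs within HI (red) and MOD (blue) calves, n = 15 each, and over 30 calves as deviations from the diet means (black bars). The pair of type I chains is near 1 in both diets (0.97 and 0.98), and the diets lie farthest apart for COL3A1 with SPARC (0.13 and 0.73).

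The genes whose patterns were most like each of the 5, by deviations from the diet means over 30 calves, were found among all genes tested. For each of the 5 genes, the 3 most similar genes outside the set had r between 0.72 and 0.83. The closest to COL1A2 was ENSBTAG00000009705 (r = 0.83), and ENSBTAG00000017746 was among the 3 closest for both COL1A1 (r = 0.80) and COL1A2 (r = 0.80). The 100 genes most correlated with COL1A1 and with COL1A2 had 77% of each list in common. COL1A2 and DCN shared 36% of each list, and COL1A1 and DCN shared 28%. COL3A1 shared 6% with COL1A1, 2% with COL1A2 and 8% with SPARC, and DCN shared 0% with COL3A1 and 0% with SPARC. SPARC shared 2% with COL1A1 and 2% with COL1A2. The share between lists of unrelated genes was not computed.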

How the data were processed

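Visceral adipose RNA of 15 HI and 15 MOD calves was sequenced from stranded mRNA libraries, 1 per calf. The authors trimmed reads with Cutadapt, aligned them to UMD3.1 with STAR, counted reads per gene and normalized with TMM in edgeR. The deposited values are a signal per gene, namely counts scaled to 1000000 reads of the TMM-adjusted library size (TMM-normalized CPM). Whole reads were recovered from the step between low values of a library, and 100% of values above 0 came out whole within 0.01 of a read.

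Diets were compared on the scale of log2(value + 0.5) in limma 3.58.1 under R 4.3.3, with a variance trend, over the 12738 genes above 1 in at least 15 libraries, with Benjamini-Hochberg adjustment over these genes. The study's exact test, edgeR 4.0.16 quasi-likelihood, DESeq2 1.42.0 and limma-voom were run on recovered reads as alternatives, with other scalings, pseudocounts (0.1 and 1), no filter, and each calf left out. The tests were tried on simulated counts. Ratios and correlations used two-sided permutation tests of 100000 resamples, exact under 10 calves.

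The 5 genes, gene lists and tests were chosen with earlier results of these data known. The rule for named genes kept the 5 genes, fixed genes and called members of further matrix lists and cell markers, and the 3 genes most alike each of the 5. The identifiers were not paired with names (the RefSeq table used, of ARS-UCD2.0, holds 0 Ensembl identifiers), so the lists were not analysed here, and 2 of the most alike genes are printed. The labels give no age, bodyweight or sire block for single calves, so none was fitted.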

Additional observations from a re-analysis of the deposited data

How the results depend on the processing

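The diet differences of the 5 genes kept their direction in all 10 alternative settings and in the 30 fits that each left out 1 calf, in which no call changed. The exceptions in calls came from library size alone, with log2 fold changes of 0.49 for COL1A1, 0.49 for COL3A1 and 0.56 for SPARC, no longer past both thresholds, and with 351 genes higher and 779 lower in HI calves. Without the fold change threshold 1790 genes were called, 932 higher and 858 lower. The cause was not tested beyond the shift of the median gene. Leaving out 1 calf gave differences from -0.0857 to 0.0616 for the ratio of COL3A1 to COL1A1, from -0.0206 to 0.13 for SPARC, from -0.42 to -0.32 for DCN, and from 0.14 to 0.18 for COL1A2.

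Within HI calves r was 0.42 for COL1A1 with SPARC, 0.55 for COL1A2 with COL3A1, 0.41 for COL1A2 with SPARC, 0.13 for COL3A1 with SPARC and -0.19 for SPARC with DCN. Without calf 2120, chosen after seeing the data, these were 0.37, 0.37, 0.36, -0.0866 and -0.22, and COL1A1 with COL3A1 was 0.41. The r of DCN with COL3A1 rose instead, from 0.46 to 0.60 (permutation test, adjusted p = 0.0592). With COL1A1 the r of DCN went from 0.64 to 0.68, and with COL1A2 from 0.65 to 0.67. Within MOD calves r was -0.0268 for COL3A1 with DCN and 0.35 for SPARC with DCN, the latter 0.33 without calves 975 and 911. SPARC with DCN was 0.24 with library size alone, 0.18 as deviations from the diet means and 0.37 without the 2 calves farthest from the median. COL3A1 with DCN was 0.38 without calves 2120, 975 and 911, then past the threshold. On the upper side of the COL3A1 gap, also chosen after seeing the data, r with COL1A1, COL1A2, SPARC and DCN was -0.33, -0.25, 0.11 and -0.32. On its lower side the same values were 0.91, 0.89, 0.67 and 0.68. No paired analysis was possible because the calves were allocated to diets within blocks of age, bodyweight and sire, and the labels used here do not assign single calves to these blocks. With at least 3427 reads per gene and library, the number of calves and not the depth limits the precision for these genes.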

Other observations

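MOD calf 2537 had the highest COL1A1 (2393) and COL1A2 (1781) CPM of the MOD calves beside a COL3A1 of 3290.2 and a SPARC of 3482. Its ratio of COL3A1 to COL1A1, 1.37, was the lowest of the 30 calves. MOD calf 1057 had the highest, 5.75, and also the lowest DCN, 235 CPM. HI calf 3148 had the highest COL1A1 (2881), COL1A2 (2522) and DCN (784) CPM of the 30 calves, and the largest share of reads on the 5 genes, 2.02%. MOD calf 1392 had the lowest COL1A1 (591), COL1A2 (456), COL3A1 (1871) and SPARC (2499) CPM of the 30 calves, with a DCN of 408 CPM near the MOD median.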
